A study of Homo sapiens with 6 samples.

Results

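The genes described here encode 8 enzymes of glycolysis: GAPDH, ENO1, PKM, LDHA, LDHB, ALDOA, TPI1 and PGK1. Their members among the data were all peaks of RNA bound by SF3B4 or by G4PID whose midpoint lay inside 1 of these genes on the same strand. The SF3B4 list gave 9 such peaks of 3660 and the G4PID list 0 of 270. The data came from eCLIP, which immunoprecipitates a protein with its crosslinked RNA and sets the sequenced RNA against an input library. The cells were HEK293T, a line derived from human embryonic kidney and expressing SV40 large T antigen. SF3B4 was pulled down with an antibody against the protein itself (2 libraries). G4PID, an engineered ligase that biotinylates its surroundings and is targeted to G-quadruplexes, was expressed from the plasmid pIRES2-G4PID-EGFP. It was pulled down with an anti-HA antibody (2 libraries), and 2 input libraries had no antibody. The labels describe transient transfection with that plasmid or with pIRES2-miniTurboID-EGFP, 24 h of culture, and labelling with 500 µM biotin for 30 min, in 1 text shared by all 6 libraries. Whether this treatment applied to the cells of the SF3B4 and input libraries is not settled by it. Nothing in the labels says that the paired libraries came from separate cultures.

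Glycolysis splits glucose into pyruvate in the cytosol, and lactate dehydrogenase then interconverts pyruvate and lactate. SF3B4 is a subunit of SF3b, the part of the U2 small nuclear ribonucleoprotein that settles on the branch point region of an intron, a short way upstream of the 3' splice site, before splicing. PKM, the gene of the muscle-type pyruvate kinase, is a textbook case of mutually exclusive splicing: exon 9 gives PKM1 and exon 10 gives PKM2, the form that predominates in proliferating cells. The proteins PTBP1, HNRNPA1 and HNRNPA2B1 are known to repress exon 9.

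Each antibody had 1 peak list with no value per library, so no spread between replicates could be measured, no test between samples was possible, and the read depth is unknown. Each peak carries 2 values of the authors, read as −log10 p and as log2 fold over input. All coordinates are on hg38. RNA amount was not measured, and a gene without a peak in these lists is not shown to be unbound. The lists hold no expression values against which the cell line could be checked.

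The bases spanned by the deposited SF3B4 peaks can be seen in the intron ends. Of those that could be read from annotated transcripts, 4 are given below, and 4 others (PKM exon 7, LDHA exon 6, ALDOA exon 6 and TPI1 exon 6) could not be read. Each is printed as the last 100 nt of the intron, 5′ to 3′ on the gene's strand, with the bases of the deposited peak in capitals. Each ends at the AG before the named exon. They lie at chr16:30067350-30067449 (+) and chr16:30068718-30068817 (+) for ALDOA exons 3 and 5, chr12:6537001-6537100 (+) for GAPDH exon 6, and chr15:72209860-72209959 (−) for PKM exon 5.
ALDOA exon 3: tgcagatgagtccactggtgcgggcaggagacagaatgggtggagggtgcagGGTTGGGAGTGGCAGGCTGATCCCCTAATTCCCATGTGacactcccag
ALDOA exon 5: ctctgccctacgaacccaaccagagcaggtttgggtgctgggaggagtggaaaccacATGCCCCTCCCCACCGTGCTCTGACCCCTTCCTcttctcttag
GAPDH exon 6: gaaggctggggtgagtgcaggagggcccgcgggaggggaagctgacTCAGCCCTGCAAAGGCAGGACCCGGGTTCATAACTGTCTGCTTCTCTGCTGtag
PKM exon 5: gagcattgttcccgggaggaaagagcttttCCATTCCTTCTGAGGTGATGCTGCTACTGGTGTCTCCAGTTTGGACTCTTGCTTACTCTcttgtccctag

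SF3B4 peaks were present in 5 of the 8 genes: PKM and ALDOA with 3 each, and GAPDH, LDHA and TPI1 with 1 each. Over all 19940 protein-coding genes, 9.36% had an SF3B4 peak by the same rule. The 8 genes were chosen with earlier results of these data known, and the difference was not tested. ENO1 (enolase), LDHB (the heart-type lactate dehydrogenase subunit) and PGK1 (phosphoglycerate kinase) had 0. Of the 1867 protein-coding genes with a peak, 23.7% had 3 or more, as PKM and ALDOA did. All 9 peaks lay in introns, and 0 touched an annotated basic exon at the midpoint. The strand opposite to the 8 genes held 0 peaks of either list. The 87 annotated pseudogenes named after these genes, 62 of them after GAPDH, also held 0 peaks of either list on either strand.

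**Figure D1:**
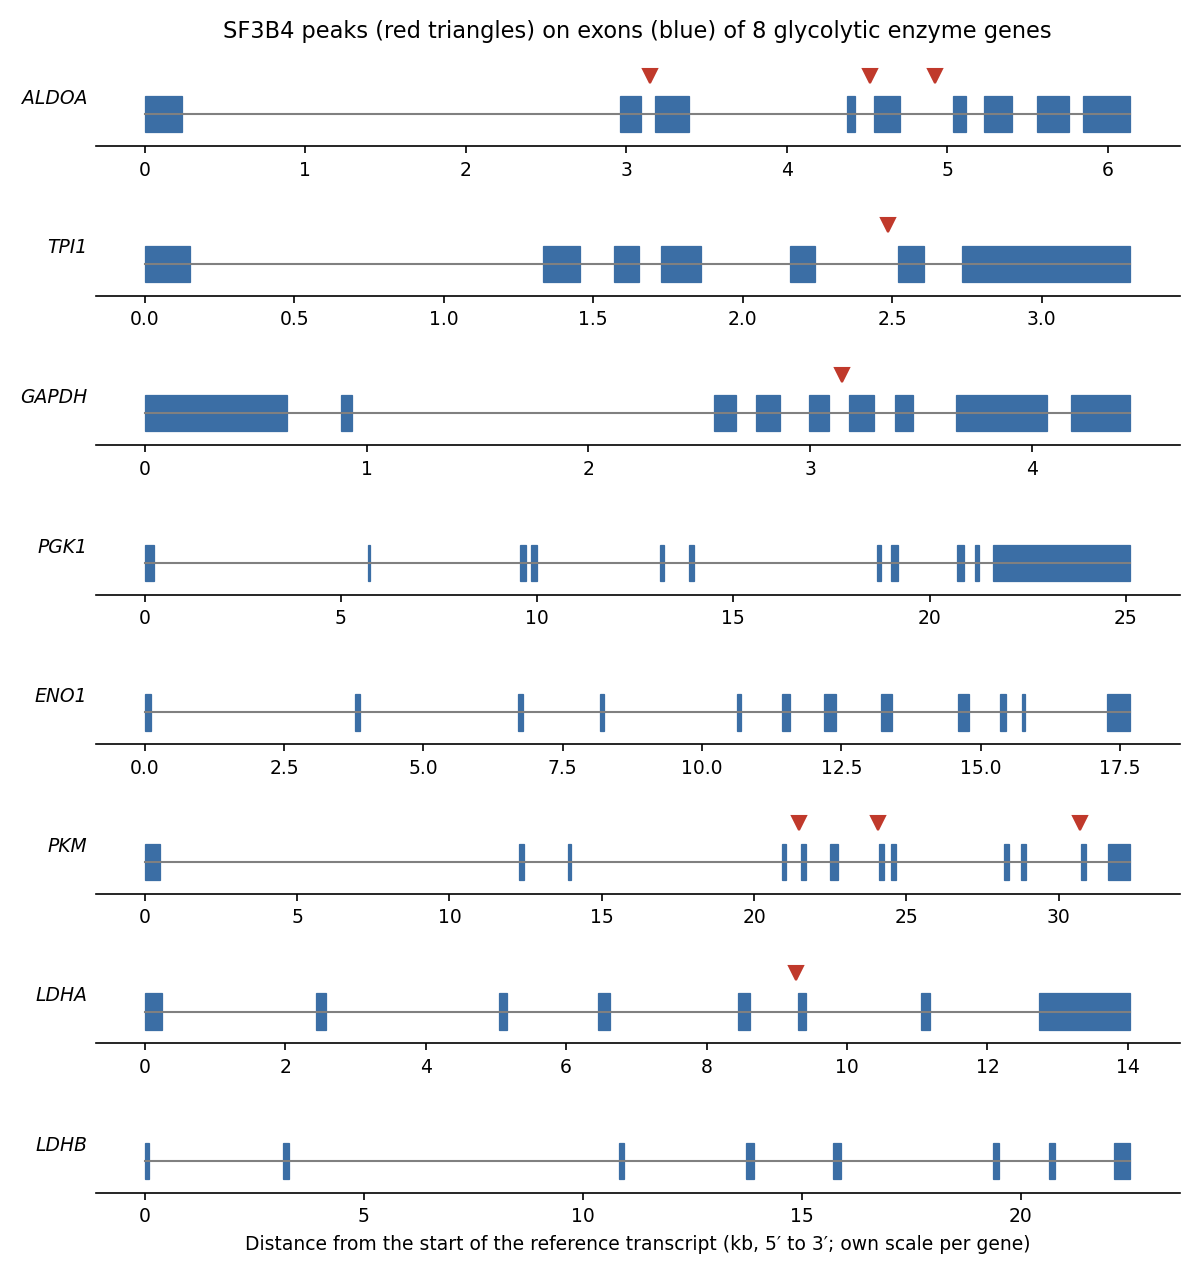
Exons (blue boxes) of the 8 genes along the reference transcript, in kb from its start and each gene on its own scale, with SF3B4 peak midpoints as red triangles. All 9 triangles stand over introns, and 8 stand close before the exon that follows; ENO1, PGK1 and LDHB carry 0.

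ALDOA encodes aldolase A, which cleaves fructose 1,6-bisphosphate into the triose phosphates. It spans 6294 nt on the plus strand of chromosome 16 and had peaks in introns 2, 4 and 5 of ALDOA-206, the transcript used to number its 9 exons. The peak before exon 5, at chr16:30068775-30068807, had a log2 fold of 5.53, above 96.2% of the SF3B4 list and the highest of the 9, with a −log10 p of 12.6. Its intron is 117 nt long, and the midpoint lay 27 nt upstream of the exon. The peak before exon 3, at chr16:30067402-30067439, had a log2 fold of 4.20 and a −log10 p of 8.81. It lay in an intron of 83 nt, the shortest one with a peak in these genes, with its midpoint 29.5 nt upstream of the exon.

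The remaining ALDOA peak stood apart from the other 8. At chr16:30069184-30069209, it was 26 nt wide, the narrowest of the 9, and had the lowest log2 fold (3.65, −log10 p 8.25). Its midpoint lay 109.5 nt upstream of exon 6 in an intron of 327 nt, and 96 nt separated its edge from the exon. No annotated transcript, basic or not, placed a 3' splice site closer to it downstream. All 3 ALDOA peaks also fall in AC093512.2, an overlapping protein-coding locus annotated on the same strand, and reads of the 2 loci cannot be told apart there.

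TPI1 encodes triosephosphate isomerase, which interconverts the products of aldolase. Its peak at chr12:6870002-6870030 (plus strand, log2 fold 4.34, −log10 p 14.9) lay before exon 6 of 7, in an intron of 275 nt. The midpoint was 33 nt upstream of the exon in the 5 basic transcripts. The wider annotation holds a site that starts the exon further upstream in 1 further transcript, and from it the midpoint was 20 nt upstream.

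GAPDH encodes the dehydrogenase that oxidises glyceraldehyde 3-phosphate. Its peak at chr12:6537047-6537097 (plus strand) filled most of the 90 nt intron before exon 6 of 9, from 54 nt upstream to 3 nt short of the exon, with the midpoint 29 nt upstream. The log2 fold was 4.55. Its −log10 p of 15.7 is shared by 300 SF3B4 peaks and equals −log10 of 2.2e-16 to within 0.0001, the smallest p that the software R prints by default. GAPDH has 7 other introns in GAPDH-201, of which the 90 nt, 92 nt and 104 nt ones are of like length, and none of the 7 had a peak.

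LDHA encodes the muscle-type lactate dehydrogenase subunit. Its single peak, at chr11:18403640-18403680 (plus strand), lay before exon 6 of 8 with the midpoint 34 nt upstream, in an intron of 680 nt. It had the lowest −log10 p of the 9 (6.64) and a log2 fold of 3.84, which 49 SF3B4 peaks share. LDHB had 0 peaks, over introns of 1158 to 7526 nt against 680 to 2462 nt in LDHA. The contrast between the paralogues rests on 1 peak and was not tested.

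PKM spans 32794 nt on the minus strand of chromosome 15. Its peaks lay before exons 5, 7 and 11 of the 12 exons counted over PKM-201, which holds exon 9, and PKM-202, which holds exon 10. The peak before exon 7, at chr15:72207300-72207331, had the highest log2 fold in the gene, 4.97 (−log10 p 8.37), and its midpoint lay 38.5 nt upstream in an intron of 1343 nt. The peak before exon 5, at chr15:72209871-72209929, had a log2 fold of 3.86 (−log10 p 13.2), with the midpoint 41 nt upstream. That exon has an alternative 3' splice site used by 1 of the 8 basic transcripts, PKM-203, and the midpoint lay within 60 nt of that site too.

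Around the mutually exclusive exons, 1 peak stood at the shared exon 11 and 0 at either alternative. Most sites have no peak: 8.36% of the sites in genes with an SF3B4 peak had one, and 10 of the 14 in PKM had none, so 0 at these 2 sites shows nothing particular to them. Exon 9 (chr15:72203022-72203188) and exon 10 (chr15:72202454-72202620) are both 167 nt long and lie 401 nt apart. Of the 8 basic transcripts, 5 hold exon 9, 3 hold exon 10 and 0 hold both. From the end of exon 8 to the end of exon 10 there were 0 SF3B4 peaks, and the nearest midpoint was 2492 nt from the 3' splice site of exon 9 and 1924 nt from that of exon 10.

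Exon 11 (chr15:72200474-72200655), to which either alternative is joined and which all 8 basic transcripts use, had the widest peak of the 9. At chr15:72200658-72200735 it was 78 nt wide, had a −log10 p of 27.8 and a log2 fold of 4.55, and reached from 80 nt upstream to 2 nt short of the exon. That −log10 p is the highest deposited value of the 9. The GAPDH value may be capped, so the order of these 2 peaks is not known. Its intron is 2366 nt long when exon 9 is used and 1798 nt when exon 10 is used. 1718 nt separated the peak from exon 10. The peak therefore lies in the intron of both forms, and these data do not tell from which form its reads came.

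**Figure D2:**
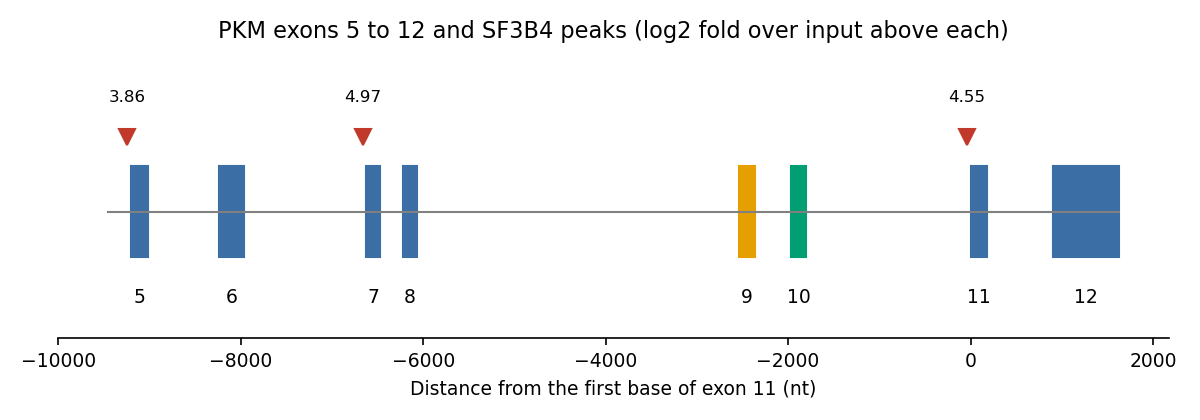
PKM exons 5 to 12 by distance in nt from the first base of exon 11, with exon 9 (PKM1) in orange, exon 10 (PKM2) in green, other exons in blue, and SF3B4 peaks as red triangles with their log2 fold. Peaks stand at exons 5, 7 and 11 (3.86, 4.97 and 4.55), and 0 stand at exons 9 and 10.

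The ends of the introns before exons 9 and 10 are shown for comparison with the intron ends above. They lie at chr15:72203189-72203288 (−) and chr15:72202621-72202720 (−), and carry no capitals because 0 bases were in a peak.
PKM exon 9: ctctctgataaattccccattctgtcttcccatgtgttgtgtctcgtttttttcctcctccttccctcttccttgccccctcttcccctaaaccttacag
PKM exon 10: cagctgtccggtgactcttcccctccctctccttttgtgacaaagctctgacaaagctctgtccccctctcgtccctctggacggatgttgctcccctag

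Pyrimidines made up 80% of the 100 nt before exon 9 and 68% before exon 10. The median over 29225 searchable 3' splice sites of protein-coding genes was 54% (quartiles 49 and 60%). Searchable sites, 14.6% of all, are those whose last 100 nt lie in exons of annotated transcripts. They are not a random set of intron ends. Both lay above the upper quartile and had no peak. In the last 20 nt the shares were 70% for exon 9 and 55% for exon 10, against a median of 70% over the searchable sites. In that window exon 9 was thus at the median and exon 10 below it. The 4 intron ends with a peak shown above held 60% (PKM exon 5), 59% (ALDOA exon 5), 42% (GAPDH exon 6) and 41% (ALDOA exon 3) pyrimidines over 100 nt. Over the last 20 nt the same 4 held 75, 85, 70 and 65%.

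Of the 9 peaks, 8 were centred 10 to 60 nt before the nearest 3' splice site, the ALDOA peak before exon 6 being the exception. Over the 3480 SF3B4 peaks in protein-coding genes with such a site, 69.3% lay in that stretch. The 8 midpoints ran from 27 nt (ALDOA exon 5) to 41.5 nt (PKM exon 11) upstream, and the median over all 9 was 34 nt. The 3366 SF3B4 peaks within 1000 nt of such a site had a median of 30.5 nt upstream, with quartiles of 41.5 and 16 nt. The upstream edge of the peak was exactly 54 nt from the exon in GAPDH, in LDHA and at PKM exon 7. It was 43, 47 and 48 nt away at ALDOA exon 5, TPI1 exon 6 and ALDOA exon 3, and 70 and 80 nt away at PKM exons 5 and 11. The downstream edge stopped short of the exon in each of them, by 2 to 22 nt.

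**Figure D3:**
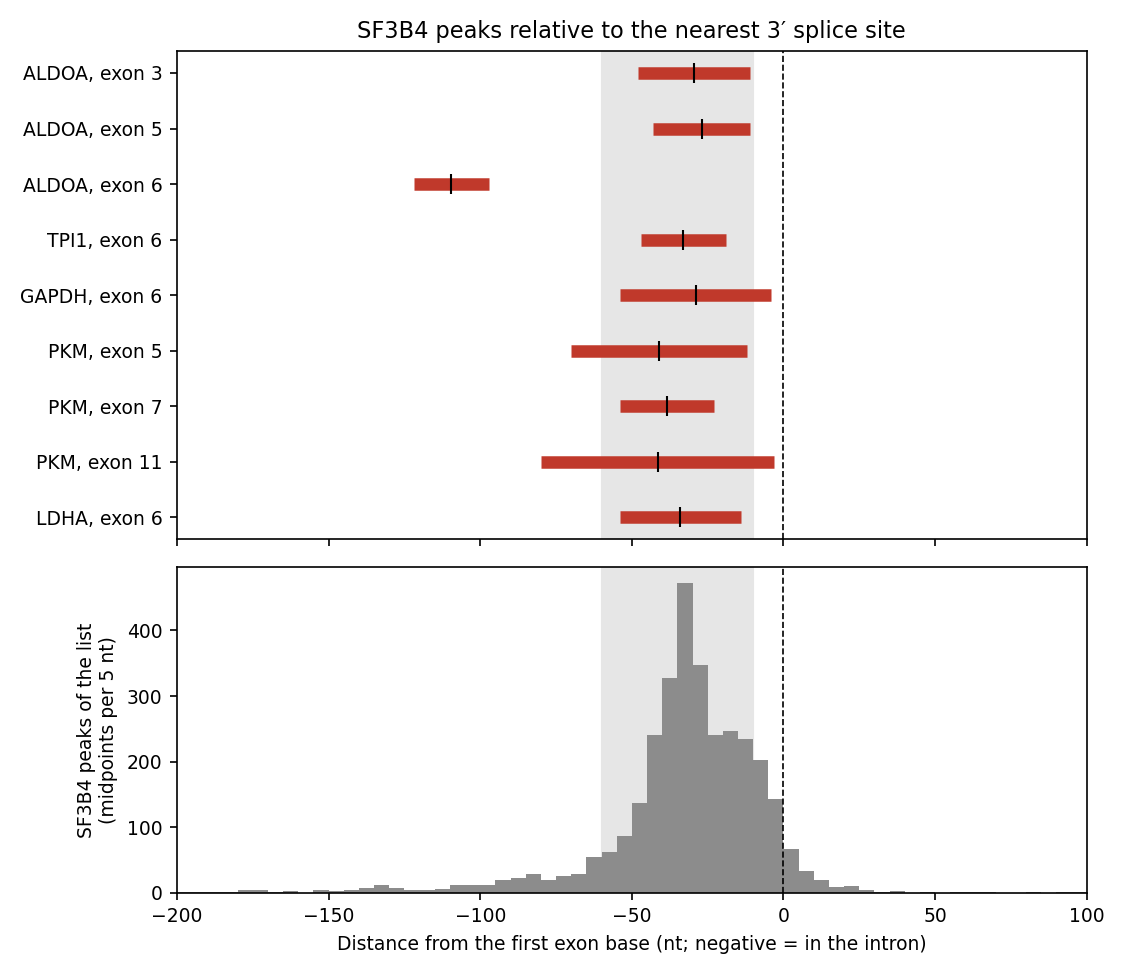
Top: extent (red bars) and midpoint (black ticks) of the 9 peaks, in nt from the first base of the exon that follows, with the stretch of 10 to 60 nt upstream in grey. Bottom: midpoints of the whole SF3B4 list, in peaks per 5 nt. 8 of the 9 midpoints lie in the grey stretch, and the peak before ALDOA exon 6 lies 109.5 nt upstream.

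Most intron ends of these genes had no peak. The basic annotation gives the 8 genes 77 distinct 3' splice sites, and 9 of them (11.7%) had a midpoint 10 to 60 nt upstream, the alternative sites of PKM exon 5 counting separately. The share over all 199803 sites of protein-coding genes was 1.24%. Within the 5 genes with a peak it was 9 of 48 sites (18.8%), against the 8.36% over all genes with an SF3B4 peak. Each such gene has at least 1 peak by definition, so these 2 shares also depend on the number of sites per gene. The 5 genes had 48 sites, and the 1867 genes with a peak had 29705. The difference was not tested. By gene the share was 4 of 14 in PKM, 2 of 11 in ALDOA, 1 of 6 in TPI1, 1 of 8 in GAPDH and 1 of 9 in LDHA. Over the reference transcripts, the 8 introns with such a peak were 83 to 2366 nt long (median 381 nt), and the other 60 were 74 to 11789 nt long (median 1187 nt). The 60 include every intron of ENO1, LDHB and PGK1, so the contrast mixes differences between genes with those within them. The introns with a peak lay within the range of the others, in its lower part, and the intron of ALDOA before exon 6 counts among the 60. The introns that open the 8 reference transcripts had 0 peaks. Even in genes with a peak only 8.36% of sites had one, so 0 of 8 shows nothing particular to opening introns.

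The authors' folds placed these peaks in the middle and upper part of the list. The 9 log2 folds ran from 3.65 to 5.53 with a median of 4.34, against a median of 3.93 and a maximum of 7.60 for the whole list. The list median was exceeded by 6 of the 9. GAPDH exon 6 and PKM exon 11 carry the identical fold, which 14 SF3B4 peaks share, and the 3660 peaks take only 554 different folds. Order between near values therefore says little. The median −log10 p was 12.6 against 8.94 for the list. The peaks were 26 to 78 nt wide (median 38 nt), against a list median of 71 nt, and 43.8% of the list was at least as wide as the widest.

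**Figure D4:**
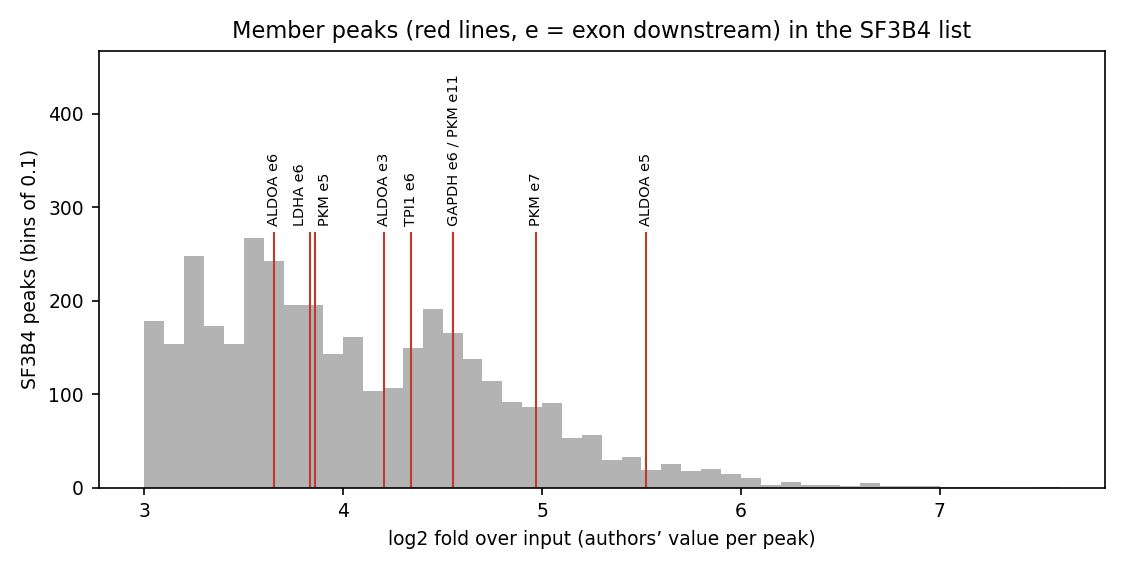
Number of SF3B4 peaks per bin of log2 fold over input (grey, 3660 peaks), with the 9 peaks of the glycolytic genes as red lines labelled by gene and by the exon that follows (e). They run from 3.65 (ALDOA exon 6) to 5.53 (ALDOA exon 5), and GAPDH exon 6 and PKM exon 11 share 4.55.

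A search for the letters CTNAC, a core that many branch points resemble, covered the 29 of the 77 sites whose last 100 nt could be read. The motif stood wholly within the stretch of 10 to 60 nt upstream in 4 of the 6 readable sites with a peak and in 7 of the 23 without one. These 6 include both alternative sites of PKM exon 5, whose windows overlap. It was found at 25.9% of all 29225 searchable sites and at 29.8% of the 1094 with a peak. On the opposite strand the shares were 0% and 8.7% for the 6 and the 23, and 10.8% for all. The A of the motif lay 16 nt upstream of PKM exon 5 and 20 nt upstream of ALDOA exon 5, inside both peaks, and 56 nt upstream of GAPDH exon 6, just outside the peak. The end before ALDOA exon 3 held no such letters. Before PKM exon 10, without a peak, the A lay 50 nt upstream.

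Quadruplex-forming letters, taken as 4 runs of 3 or more G, each pair separated by 1 to 7 nt, are shown because the ligase of the same series is directed to such folds. They stood in sense in the last 100 nt before 4 of the 29 readable sites (13.8%), against 4.12% of all searchable sites, and on the opposite strand before 1 (3.45% against 4.12%). Among the 1094 searchable sites with an SF3B4 peak, 4.02% had them in sense, near the share of all searchable sites. Of the 4 sites with a match in sense, only the ALDOA exon 3 site had an SF3B4 peak, which covered 7 of the 22 bases. The shortest matches, 5′ to 3′ on the plus strand with peak bases in capitals, lie at chr16:30067387-30067408, chr16:30070049-30070072, chr12:6537525-6537551 and chr12:6868767-6868791.
ALDOA before exon 3: gggtggagggtgcagGGTTGGG
ALDOA before exon 9: gggcagggtgcctgggtggatggg
GAPDH before exon 8: gggagggaggtagaggggtgatgtggg
TPI1 before exon 2: gggtgagggctggggggctccaggg

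The ALDOA match before exon 3 began 63 nt and ended 42 nt upstream of the exon, so that it crossed the upstream edge of the peak. The G4PID list had 0 peaks at any of the 4 matches and 0 in the 8 genes, where 0.507% of protein-coding genes had one. With that share so low, 0 of 8 shows nothing particular to these genes. The G4PID peaks nearest to the genes on the same strand lay 57305 nt from TPI1 and 389879 nt from GAPDH.

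Among 22 other glycolytic enzymes and isozymes, 3 had an SF3B4 peak (13.6%, against 9.36% of protein-coding genes) and 0 a G4PID peak. GPI, which encodes glucose-6-phosphate isomerase, had 4 peaks with log2 folds of 3.24 to 4.79. PFKL, the liver-type phosphofructokinase, had 1 at 5.34, and PGAM1, a phosphoglycerate mutase, had 1 at 4.47. Of these 6 peaks, 5 lay 10 to 60 nt upstream of a 3' splice site, and a GPI peak lay 88 nt upstream. The 11 steps from hexokinase to lactate dehydrogenase were represented by 28 of the enzyme genes listed here. ADPGK and BPGM, also among the 22, were assigned to no step. Of the 28 genes, 8 had a peak: the 3 just named and the 5 described above. A step was counted if any of its genes had a peak, so that a step with more genes was more easily counted. By this rule, with no such share over other pathways to set beside it, 8 of the 11 steps were counted. The other 3 were hexokinase, phosphoglycerate kinase and enolase. The median of the highest log2 fold per gene was 4.79 for the 3 genes, 4.55 for the 5 above and 4.34 over all protein-coding genes with a peak.

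Of 6 genes whose proteins are known to act on the choice between PKM exons 9 and 10, 5 had SF3B4 peaks on their own RNA, where 9.36% of protein-coding genes had one. This list too was chosen with earlier results of these data known, and the difference was not tested. HNRNPA1 had 8 peaks (highest log2 fold 5.97), PTBP1 had 7 (5.24) and HNRNPA2B1 had 5 (5.87). PTBP2, the neuronal paralogue of PTBP1, had 2 (3.62), SRSF3, an SR protein gene, had 1 (4.58), and RBM4 had 0. Of their 23 peaks, 17 lay 10 to 60 nt upstream of a 3' splice site, a share near the 69.3% of the whole list, and both PTBP2 peaks had their midpoint just inside an exon. None of the 6 genes had a G4PID peak.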

How the data were processed

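The authors deposited 1 peak list per antibody, without a header. Tools named per the submitters' processing notes were STAR 2.7.0d and cutadapt 3.4. These notes list hg19 and hg38, and the lists are on hg38. The peak caller, its filters, and how libraries and molecular identifiers were combined are, in the sources used here, not given. The deposited −log10 p and log2 fold over input were identified from the column order usual for eCLIP and from their range. Positions were compared with GENCODE release 29 of the same build, its basic transcripts giving splice sites. A peak counted for every protein-coding gene whose bounds held its midpoint on the same strand. Distances ran from the midpoint to the first exon base. No genome sequence was used here: bases were rebuilt from 206694 annotated transcripts (0 disagreeing bases), which covered 14.6% of sites over 100 nt. Of the 9 intron ends with a peak, 4 could not be read this way and 1 more is not reported here. The genes and lists were chosen with earlier results of these data known, and every peak of the 8 genes is given. All comparisons are descriptions without a test. The position code recovered all 200 positions planted at known distances from sites of these genes. That checks only the sign of the distances and the strand rule, not the annotation or the choice of the nearest site. Python 3.11.15, numpy 2.4.6 and matplotlib 3.10.9 were used.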

Additional observations from a re-analysis of the deposited data

How the results depend on the processing

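No paired analysis was possible because each antibody had 1 list without values per library; for the same reason no replicate could be left out. With −log10 p of at least 10, there were 5 SF3B4 peaks in 4 genes in place of 9 in 5, LDHA having 0 and ALDOA 1. With log2 fold of at least 4, there were 6 in 4 genes, LDHA again having 0. Measured from the peak's 5′ end, the median distance was -54 nt in place of -34 nt, and the peaks before PKM exons 5 and 11, which start 70 and 80 nt upstream, left the stretch, so that 6 sites had a peak in place of 9. Splice sites with a peak numbered 6 to 10 over all settings. G4PID peaks in the 8 genes and SF3B4 peaks at PKM exons 9 and 10 numbered 0 in every setting tried. The stricter cutoffs can only remove peaks, so a 0 could not change under them. Depth is unknown.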

Other observations

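Other gene lists next to glycolysis were counted by the same rule. In the pentose phosphate pathway, which branches off after the hexokinase step, 2 of 7 genes had an SF3B4 peak, where 9.36% of protein-coding genes had one. TKT, which encodes transketolase, had 3 peaks with log2 folds of 3.69 to 4.93, and RPE, which encodes ribulose-phosphate epimerase, had 1 at 4.69. Of the 4 peaks, 3 lay 10 to 60 nt upstream of a 3' splice site. Around pyruvate dehydrogenase, 1 of 12 genes had a peak: PC, which encodes pyruvate carboxylase, at a log2 fold of 3.64 and 10.5 nt upstream of the exon. Among 11 genes of glucose and lactate transport and glycolytic control, 0 had an SF3B4 peak. G4PID peaks numbered 0 in each of these lists. None of these counts was tested, and RNA amount was not measured.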
